A study of Xenopus tropicalis x Xenopus laevis and Xenopus tropicalis with 6 samples.

Results

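DNA repair and damage signalling genes find breaks, adducts and mispaired bases, halt the cell cycle while damage lasts, and mend the strand by pathways suited to each kind of lesion. Frog eggs store messenger RNA for much of this machinery, because the early cleavage cycles run before the embryo's own genome is switched on. RNA counted at the start of gastrulation is therefore a mixture of egg stores and new transcripts, in parts that were not measured here. The set comprised 43 named genes, taken by gene name from a table of 45244 counted features. Of these genes, 42 had at least 1 feature, with 45 features assigned to *X. tropicalis* and 41 to *X. laevis*; 35 genes had features of both species, 7 had *X. tropicalis* features alone and fanci had none.

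Whole embryos were collected 7 hours after fertilization, and polyA RNA was sequenced from 3 libraries in each of 2 groups. Hybrids came from *X. tropicalis* eggs and *X. laevis* sperm (libraries 40, 41 and 42), and the comparison group was *X. tropicalis* embryos (libraries 37, 38 and 39). Neither group carried a transgene or a treatment in the labels. By its cross, a hybrid starts with 1 haploid *X. tropicalis* chromosome set and 1 *X. laevis* set, whereas an *X. tropicalis* embryo has both sets from *X. tropicalis*. *X. laevis* is allotetraploid, and its chromosomes form long (L) and short (S) series.

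Library totals lay between 71435751 and 100025277 counts. *X. laevis* features took 15.4 to 17.6% of all counts in hybrids and 5.33 to 5.92% in *X. tropicalis* libraries, where they are background. Levels are given as CPM, library-size-scaled counts, set so that the *X. tropicalis* features as a whole are level between libraries. Among transcripts that mark the gastrula, chrd, gsc, sox17a and t were lower in hybrids (edgeR quasi-likelihood test, adjusted p up to 0.0148), while eomes, mixer, vegt and sia1 did not pass. The egg transcripts dazl, gdf1, npm2, velo1 and zar1 did not pass either. The muscle and blood markers actc1, myh6 and hba1 had means of 0.339 CPM or less in both groups. Of the later-tissue list, crygb (LOC100493812) stood at 4.70 CPM in hybrids beside 5.52 CPM in *X. tropicalis*, and ins (LOC100494294) at 23.5 beside 60.0 CPM (edgeR adjusted p = 0.0498). The part of these differences in the results was not tested.

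Few *X. tropicalis* copies of the repair genes differed between the groups beyond the replicate error. Of 43 member features that passed the filter on low counts, 1 fell in hybrids and 0 rose (edgeR quasi-likelihood test, Benjamini-Hochberg adjusted p under 0.05 over all 14079 features tested), against 3.0% and 0.76% of all features tested. Without adjustment, 5 member features were lower and 1 higher at p under 0.05, against 10.3% and 7.56%. These counts do not set the members apart from all features tested. DESeq2 called 2 of them lower and 0 higher, against 5.66% and 2.81%. Without the filter on low counts and with scaling over both species the member features called lower were also 2, against 3.44% and 8.09%, while the latter scaling called 0.54% of all features higher and 0 of the member features. The median log2 fold change of the member features was -0.05, against -0.01 over all features tested. Summed over the member features, hybrids held 2636, 2396 and 2575 CPM and *X. tropicalis* libraries 2877, 2687 and 2641 CPM. The groups lay close together and did not overlap, though hybrid library 40 and *X. tropicalis* library 39 nearly coincided. The parp1 feature counts toward this sum, at 66.0, 51.2 and 61.7 CPM in hybrids against 154, 145 and 137 CPM. Between hybrid library 40 and *X. tropicalis* library 39, parp1 differed by more than the sums did. By group means the sums lay further apart (2536 and 2735 CPM) than parp1 (59.7 and 145 CPM). Other single features, chek1 and mdc1-like among them, also differed by more than the sums did between hybrid library 40 and *X. tropicalis* library 39. Some, such as ung and rad50-like, did so in the other direction. What any single feature gave to the absence of overlap was not tested.

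How firmly a change can be bounded differed between members. For 28 of the 43 features the 95% interval of the log2 fold change lay wholly between -1 and 1, which is less than a 2-fold change either way, against 46.3% of all features tested. For 32 of them the interval lay above -1, so that a 2-fold fall was outside it, against 58.4% of all features tested. These bounds are relative to the *X. tropicalis* features as a whole and depend on the scaling. Scaling over both species moved the median log2 fold change of the members to -0.33. The widest intervals belonged to members with few counts, among them xrcc2 (-4.25 to 8.20) and rad51c-like.2 (-1.41 to 3.90). In bulk RNA, fewer cells with a transcript and less transcript per cell cannot be told apart.

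**Figure D1:**
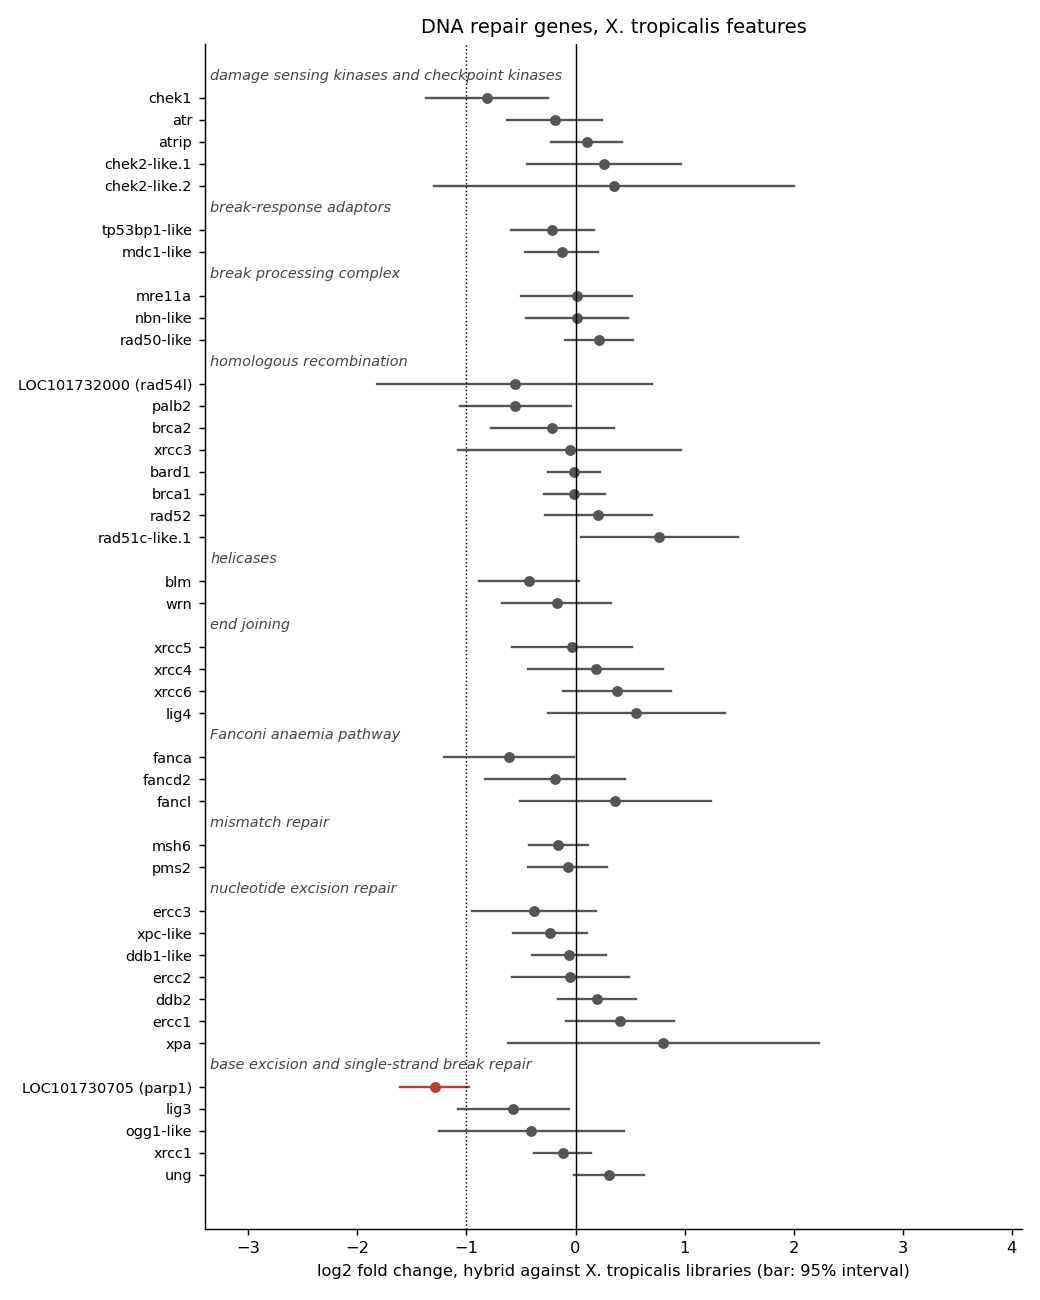
Log2 fold change (x axis, hybrid against *X. tropicalis* libraries, 3 per group) of the *X. tropicalis* features, grouped by pathway; dots are edgeR estimates and bars 95% intervals, the solid line marks no change and the dotted line -1. The parp1 feature, in red at -1.29, is the called one; xrcc2 and rad51c-like.2, with intervals over 5 units wide, are not drawn.

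The member that fell was parp1, counted on the feature LOC101730705 on chromosome 5. Its product senses DNA strand breaks and builds chains of ADP-ribose that recruit repair factors. Hybrid libraries held 66.0, 51.2 and 61.7 CPM, and *X. tropicalis* libraries 154, 145 and 137 CPM. All hybrid libraries lay below all *X. tropicalis* libraries. The means were 59.7 CPM ± 7.63 and 145 CPM ± 8.66 (SD, n = 3 per group), a log2 fold change of -1.29 ± 0.14 SE (95% interval -1.61 to -0.97; edgeR adjusted p = 5.95e-04). The call held with each library left out in turn and in every alternative fit, with estimates from -1.58 to -1.19.

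Other members of base excision and single-strand break repair did not pass. Lig3, the ligase that works with the scaffold protein Xrcc1, stood at 35.1, 23.7 and 24.2 CPM in hybrids against 49.2, 40.5 and 32.8 CPM in *X. tropicalis* (a log2 fold change of -0.57 ± 0.23 SE, edgeR adjusted p = 0.227). Hybrid library 40 lay above *X. tropicalis* library 39, so the groups overlapped. Its partner xrcc1 gave 126 CPM ± 3.39 and 136 CPM ± 7.37 (SD, n = 3; log2 fold change -0.12, 95% interval -0.38 to 0.15). The uracil glycosylase gene ung gave 116, 116 and 131 CPM in hybrids against 113, 93.8 and 85.4 CPM in *X. tropicalis* (0.31 ± 0.15 SE, edgeR adjusted p = 0.310). Here every hybrid library was above every *X. tropicalis* library, which was so for 4 of the 43 member features and 11.3% of all features tested. The 8-oxoguanine glycosylase feature ogg1-like ranged from 6.69 to 19.7 CPM over the 6 libraries, with a wide interval (-1.26 to 0.44).

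Damage signalling starts with the kinases ATM and ATR. The gene atr stood at 33.4, 24.7 and 25.2 CPM in hybrids against 32.7, 30.3 and 31.6 CPM in *X. tropicalis*, and atrip, which brings ATR to single-stranded DNA, at 65.4, 63.6 and 55.6 against 56.3, 55.5 and 59.3 CPM. The groups overlapped for both genes, with intervals of -0.63 to 0.25 for atr and -0.22 to 0.43 for atrip on the log2 scale. Of the features taken for atm, LOC101734617 had 58 and 2 counts in hybrid libraries 40 and 42, and atm had 62 counts in *X. tropicalis* library 37; both failed the filter. A further chromosome 2 feature, Xetrov90006807m, carries the human name ATM in the table but falls outside the naming rule; it held 27.5, 16.6 and 10.9 CPM in hybrids against 34.8, 14.9 and 24.3 CPM in *X. tropicalis* (a log2 fold change of -0.44 ± 0.38 SE, edgeR adjusted p = 0.641).

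Chek1, the checkpoint kinase that ATR switches on, and which is active in *X. laevis* embryos at the midblastula transition, had the second smallest p among the members. Hybrid libraries held 43.7, 25.6 and 35.7 CPM and *X. tropicalis* libraries 64.6, 43.3 and 75.4 CPM. Hybrid library 40 and *X. tropicalis* library 38 nearly coincided, and they are the overlap between the groups. The log2 fold change was -0.81 ± 0.25 SE (95% interval -1.37 to -0.25; edgeR adjusted p = 0.124), and it passed in 4 alternative fits, with DESeq2 (adjusted p = 0.0362), without the filter on low counts (0.0299), with scaling over both species (0.0357) and with the features of both species summed (0.0461). The features of chek2, the kinase downstream of ATM, did not pass: chek2-like.1 stood at 13.4 CPM ± 3.85 in hybrids beside 11.1 CPM ± 1.97 in *X. tropicalis*, and chek2-like.2 at 3.21 CPM ± 0.106 and 2.52 CPM ± 1.79 (SD, n = 3). These near-identical names may share reads.

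Break-response adaptors and the complex that processes DNA ends did not differ beyond their errors. Mdc1-like, whose product is a scaffold on damaged chromatin, held 265, 307 and 378 CPM in hybrids against 339.5, 387 and 307 CPM in *X. tropicalis* (a log2 fold change of -0.13, 95% interval -0.46 to 0.21). Tp53bp1-like held 187, 124 and 152 against 198, 150.2 and 185 CPM (-0.21, interval -0.59 to 0.17). In the end-processing complex, mre11a (0.01, interval -0.50 to 0.51), nbn-like (0.01, -0.45 to 0.48) and rad50-like (0.22, -0.10 to 0.53) each excluded a 2-fold change. Rad50-like held 97.1, 96.0 and 98.9 CPM in the hybrids, all just above the 82.7, 95.2 and 72.4 CPM of *X. tropicalis*.

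Among homologous recombination genes, 0 of 10 features passed with edgeR or DESeq2, while without adjustment rad51c-like.1 was higher and palb2 lower at p under 0.05. Over all features tested, edgeR called 3.0% lower and 0.76% higher, and DESeq2 5.66% and 2.81%. Without adjustment the edgeR shares were 10.3% and 7.56%, so these counts do not set the 10 features apart. Brca1 held 282, 302 and 300.5 CPM in hybrids against 333, 258 and 294 CPM in *X. tropicalis*, and its ubiquitin ligase partner bard1 held 193, 198 and 201 against 190.0, 206 and 199 CPM. The estimates for this pair were both -0.01, with the narrow intervals -0.29 to 0.27 and -0.25 to 0.22. Palb2, which ties BRCA1 to BRCA2, stood lower in all hybrid libraries (25.8, 19.7 and 19.4 CPM) than in all *X. tropicalis* libraries (39, 27.8 and 27.7 CPM). Its log2 fold change of -0.55 ± 0.23 SE had an edgeR adjusted p of 0.238, and groups apart in this direction were found for 3 of the 43 member features and 13.2% of all features tested. Brca2, whose product acts in strand exchange, varied widely among hybrids, at 62.7, 40.4 and 29.7 CPM, around the *X. tropicalis* values of 55.9, 44.2 and 52.8 CPM. Rad51c-like.1 gave 11.2, 17.7 and 9.72 CPM in hybrids against 7.41, 7.59 and 7.54 CPM in *X. tropicalis* (0.77 ± 0.32 SE, edgeR adjusted p = 0.249), with all hybrid libraries above. The remaining features of this pathway, xrcc2, xrcc3, rad52, rad51c-like.2 and LOC101732000 (rad54l), had log2 fold changes from -0.56 to 1.97 with intervals that held 0. A second feature with the human name RAD54L, Xetrov90011831m, is outside the naming rule and gave -0.03 ± 0.21 SE.

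**Figure D2:**
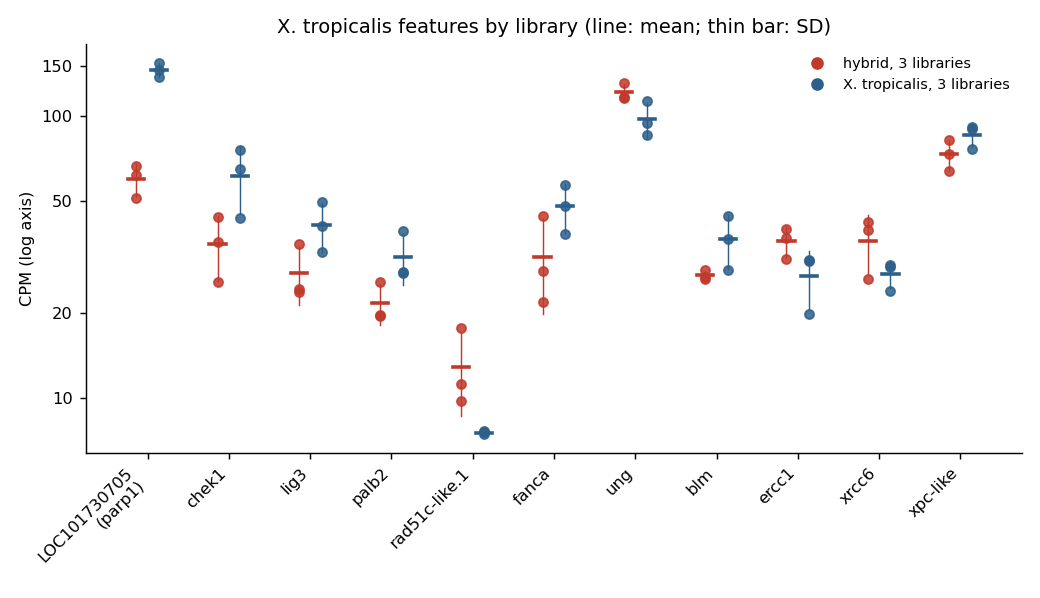
CPM (log axis) of the called feature and the 10 next by p among the *X. tropicalis* features, with 1 dot per library, a line at the mean and a thin bar for the SD (n = 3). The parp1 feature shows the clear gap (51.2 to 66.0 against 137 to 154 CPM), while chek1, lig3, fanca, xrcc6 and xpc-like overlap.

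The RecQ helicase genes of the set, blm and wrn, both had estimates below 0 without passing. Blm held 26.8, 28.4 and 26.4 CPM in hybrids against 36.5, 44.2 and 28.5 CPM in *X. tropicalis* (a log2 fold change of -0.43 ± 0.21 SE, edgeR adjusted p = 0.316). For blm the hybrid libraries lay just under the lowest *X. tropicalis* library. Wrn gave 26.1 CPM ± 4.30 and 29.3 CPM ± 5.67 (SD, n = 3).

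End joining depends on the Ku heterodimer, encoded by xrcc6 and xrcc5, and on the ligase complex of Lig4 and Xrcc4. Xrcc6 gave 26.3, 39.3 and 42 CPM in hybrids against 24.0, 29.5 and 29.0 CPM in *X. tropicalis* (0.38 ± 0.22 SE, edgeR adjusted p = 0.427), whereas xrcc5 gave 19.5 CPM ± 4.91 and 19.8 CPM ± 2.15 (SD, n = 3). Lig4 held 14.4, 11.5 and 10.9 CPM against 4.79, 8.42 and 11.7 CPM (0.56, interval -0.26 to 1.37). The groups overlapped for lig4 through *X. tropicalis* library 39. Xrcc4 stood at 17.6 CPM ± 4.62 and 15.4 CPM ± 2.61.

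In the Fanconi anaemia pathway, which unhooks crosslinked strands, fanca of the core complex held 44.2, 21.8 and 28.2 CPM in hybrids against 57.0, 38.1 and 47.9 CPM in *X. tropicalis* (a log2 fold change of -0.61 ± 0.27 SE, edgeR adjusted p = 0.268). Fancd2, which the complex tags with ubiquitin, gave -0.19 (interval -0.83 to 0.46) and the ubiquitin ligase gene fancl 0.37 (-0.51 to 1.25). Fanci, the partner of fancd2, had no feature under the naming rule, since the feature with the human name FANCI is called polg-like in the table.

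Mismatch repair and nucleotide excision repair had no feature that passed. Msh6, part of the mismatch sensor, held 161, 133 and 152 CPM in hybrids against 159, 165 and 172 CPM in *X. tropicalis*, and pms2 142, 114 and 139 against 165, 133 and 115 CPM. Of the 7 nucleotide excision features, 0 passed with edgeR or DESeq2, and 0 at an unadjusted p under 0.05. Of all features tested, edgeR called 3.0% lower and 0.76% higher, and DESeq2 5.66% and 2.81%. Without adjustment the edgeR shares were 10.3% and 7.56%, so counts of 0 among 7 do not set this pathway apart. Xpc-like, which finds helix-distorting lesions, held 82.1, 63.7 and 73.1 CPM in hybrids against 89.5, 76.1 and 90.9 CPM (-0.24 ± 0.15 SE, edgeR adjusted p = 0.494). Ercc1, a subunit of the nuclease that cuts beside the lesion, held 39.7, 30.9 and 36.9 CPM in hybrids against 19.7, 30.4 and 30.7 CPM in *X. tropicalis* (0.41 ± 0.22 SE, edgeR adjusted p = 0.394). The damage sensor subunits ddb1-like and ddb2 and the transcription factor helicase gene ercc2 gave -0.06, 0.20 and -0.05, ercc3 gave -0.38 and xpa, with few counts, 0.81 (interval -0.62 to 2.23).

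A longer list of repair and checkpoint genes was tested the same way. Of 90 other genes, 80 had an *X. tropicalis* feature, and 82 features were tested. Tdg, a thymine glycosylase gene of base excision repair, fell from 63.8, 74.6 and 58.8 CPM in *X. tropicalis* to 35.1, 25.5 and 36.3 CPM in hybrids (a log2 fold change of -1.03 ± 0.19 SE, edgeR adjusted p = 0.0124). Pcna, the clamp that holds polymerases on DNA, rose from 281, 333 and 267 CPM to 442, 491 and 431 CPM (0.62 ± 0.12 SE, edgeR adjusted p = 0.0151). These calls, 1 lower and 1 higher, stand beside the 3.0% and 0.76% of all features tested. Hybrid libraries were all above the others for 8 features of the list and all below for 5, against 11.3% and 13.2%. The other 80 tested features did not pass, and the median log2 fold change of the list was 0.03.

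Paternal transcripts of repair genes were present but made up a small part of the set. *X. laevis* features took 3.33, 4.78 and 4.31% of the members' counts in the hybrid libraries and 0.213, 0.193 and 0.291% in the *X. tropicalis* libraries. The test took features with a sum of 10 counts or more in hybrids, the group where paternal features can be high. Of 38 member features that passed this filter, 21 exceeded the background (edgeR quasi-likelihood, p adjusted over 23919 features), against 40.4% of all *X. laevis* features tested. With all 41 member features tested and no filter beyond 1 count, 22 exceeded it, against 35.6%. DESeq2 called 24, against 48.3%, and a filter of 5 CPM on unscaled library totals, in 3 libraries, left 4 member features, all called, against 65.9%. Those 4 met the filter through the hybrid libraries alone, so their calls add nothing to the main test. Of the 41 member features, fancd2.L, pms2.L and rad52.S had too few counts in hybrids for the main filter of 10 counts, among them 0 in every hybrid library for fancd2.L and pms2.L. No member feature was called lower with edgeR or DESeq2 (0.196% and 0.285% of all), and 0 were lower without adjustment at p under 0.05 (0.301% of all). Without the filter it was also 0 of 41 (0.28% of all). All hybrid libraries lay above all *X. tropicalis* libraries for 25 member features and for 46.3% of all features tested. Of the 21 called, blm.S was not among these, with 18, 105 and 0 counts in hybrid libraries 40, 41 and 42 (edgeR adjusted p = 0.0488). Nbn-like.L, also called, had 123, 23 and 2 counts there (edgeR adjusted p = 0.0213).

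The paternal feature with the highest CPM was ung.L, on chromosome 1L, at 9.87, 16.5 and 18.8 CPM in hybrids against 0.0187 to 0.0408 CPM in *X. tropicalis* (edgeR adjusted p = 2.73e-11). Next came lig3.L at 9.66, 11.9 and 15.5 CPM, with background up to 0.420 CPM, and the parp1 feature LOC101730705.L at 9.11, 7.40 and 13.5 CPM, with background up to 0.0714 CPM. CPM are not per length, so this order is one of counts and not of molecules. All 3 belong to base excision and single-strand break repair. In that same pathway xrcc1.L, xrcc1.1 and ogg1-like.L did not pass (edgeR adjusted p = 0.0594, 0.140 and 0.218).

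Features of several other pathways followed. Atrip.S stood at 4.79, 8.06 and 8.32 CPM in hybrids, tp53bp1-like.S at 5.32, 7.71 and 5.47 CPM and mdc1-like.L at 3.68, 8.76 and 5.73 CPM. The ligase feature lig4.L held 6.25, 6.83 and 5.61 CPM and the helicase feature wrn.L 5.03, 6.94 and 5.96 CPM. In these 5 features the background was 0.0612 CPM or less, so hybrid and *X. tropicalis* libraries were far apart. The bard1 feature Xelaev18044855m gave 5.63, 5.17 and 4.04 CPM, msh6.L 3.40, 6.05 and 4.25 CPM and ddb1-like.S 1.17, 2.87 and 3.42 CPM; the last 2 had no count in *X. tropicalis*. The edgeR adjusted p of these 8 features was at most 2.66e-05.

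Brca2.L was measured less surely. It held 3.45, 5.13 and 6.56 CPM in hybrids, but also 0.510, 1.13 and 2.38 CPM in the comparison embryos, which carry no *X. laevis* genome. The groups did not overlap (edgeR adjusted p = 0.0456), yet the call was lost without hybrid library 41 or 42 or without *X. tropicalis* library 37 or 38 (adjusted p from 0.0753 to 0.157), and with scaling over both species (0.0903). Background as high as the hybrid level was seen for atr.L (1.85 CPM ± 1.25 in hybrids beside 1.47 CPM ± 0.824 in *X. tropicalis*, SD, n = 3) and chek1.S (1.22 CPM ± 1.42 and 1.42 CPM ± 1.77). For those features no paternal transcript was detectable over the background, whose source was not tested. In contrast chek1.L, at 0.202, 1.11 and 0.986 CPM in hybrids against 0.0211 CPM or less, was above background (edgeR adjusted p = 0.0381).

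**Figure D3:**
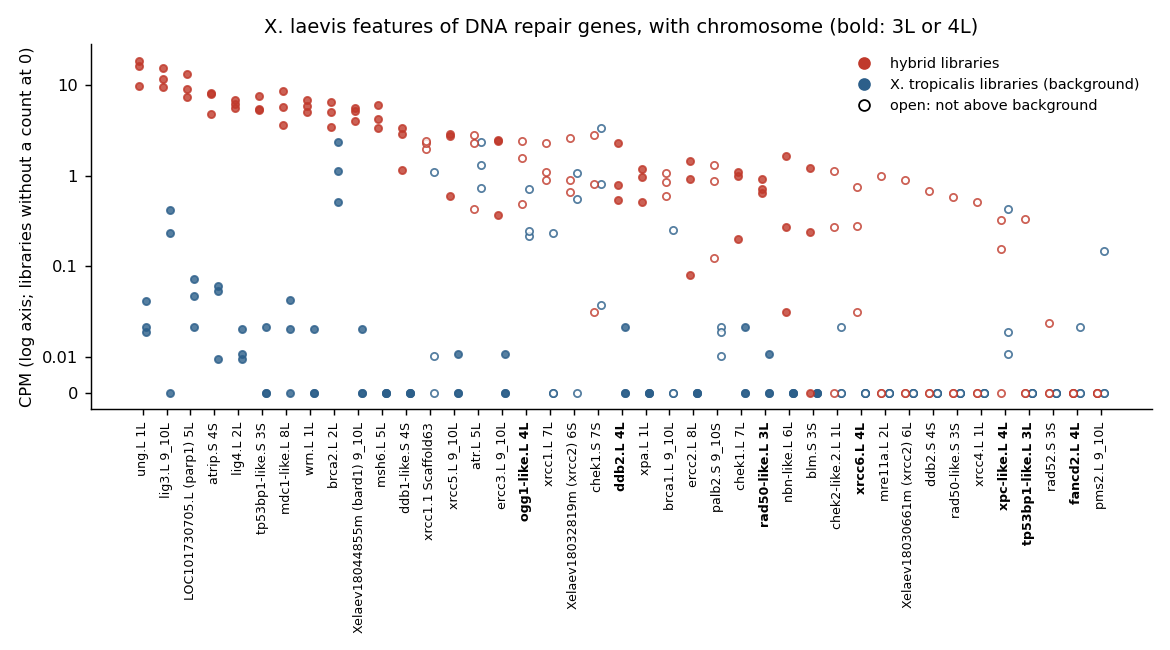
CPM (log axis, libraries without a count drawn at 0) of all 41 *X. laevis* features of the set, ordered by mean hybrid level, with hybrid libraries in red and the background in *X. tropicalis* libraries in blue; filled dots mark the 21 features above background and open dots the rest. Features on chromosomes 3L and 4L, in bold, have hybrid means of 1.49 CPM or less, as do many features elsewhere, such as xpa.L (0.895 CPM) and brca1.L (0.846 CPM). The highest feature is ung.L, with 9.87 to 18.8 CPM.

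Chromosomes 3L and 4L, known from earlier work on this cross to lose segments in the hybrid, carried 7 of the 41 paternal features. Of the 6 that could be tested, 2 were above background, against 22.2% of all tested features on these chromosomes; elsewhere it was 19 of 32, against 42.3%. The tested member features are few, and the difference between the chromosomes was not tested over the members. Ddb2.L on 4L held 0.538, 0.798 and 2.28 CPM in hybrids (edgeR adjusted p = 0.00682), although its call was lost without hybrid library 42 (adjusted p = 0.0520). Rad50-like.L on 3L held 0.914, 0.715 and 0.647 CPM (edgeR adjusted p = 0.0236), a call lost without hybrid library 40 or 41 or *X. tropicalis* library 37 or 39 (adjusted p from 0.0585 to 0.0669). Both were near 0 in *X. tropicalis* libraries, at 0.0211 CPM or less.

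The other features on these chromosomes did not pass. Xrcc6.L held 0.753, 0.281 and 0.0308 CPM in hybrids against no count in *X. tropicalis* (edgeR adjusted p = 0.0807; it passed with DESeq2, 0.0196, and without hybrid library 42, 0.0393). Ogg1-like.L held 0.484, 2.42 and 1.57 CPM against 0.214, 0.243 and 0.710 CPM (edgeR adjusted p = 0.218). Xpc-like.L held 0, 0.328 and 0.154 CPM against 0.428, 0.0106 and 0.0187 CPM, and fancd2.L had no count in any hybrid library. Tp53bp1-like.L on 3L had counts in hybrid library 40 alone (0.336 CPM), whereas its short-chromosome copy tp53bp1-like.S on 3S reached 5.32 CPM or more in every hybrid library.

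For rad50 and ddb2 it was the long-chromosome copy that was counted in every hybrid library. Rad50-like.S on 3S was counted in hybrid library 41 alone (0.586 CPM), so that here the 3L copy was the one seen in every hybrid library. Ddb2.S on 4S was counted in hybrid library 40 alone (0.672 CPM), where it stood above ddb2.L (0.538 CPM). Ddb2.L reached 2.28 CPM in hybrid library 42. The counting may have split reads that fit both copies.

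Set against the maternal copies, the paternal share differed widely among genes. The share is the *X. laevis* level of a gene in hybrids, less its background, as a percentage of that level plus the gene's *X. tropicalis* level. Over the 35 genes with features of both species the median share was 2.82%, with 10 genes over 10% and 8 under 1%. Over all 10917 human gene names with features of both species and at least 10 counts in hybrids the median was 8.28%, with 46.7% of names over 10%, against 28.6% of the member genes, and 19.1% under 1%, against 22.9%. A human name can join features that gene names keep apart, so the sums behind the medians are not formed alike.

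Among genes with enough counts, lig4 and lig3 held the highest shares. The paternal share of lig4 was 30.2, 37.2 and 34% in the hybrid libraries (33.8% ± 3.47, SD, n = 3), that of lig3 21.2, 33.1 and 38.6%, and that of wrn 16.8, 23.6 and 16.2%. Xpa reached 25.9, 10.6 and 21.1% on few counts, and parp1 12.1, 12.6 and 17.9%. Atrip (10.3% ± 3.19) and ung (11% ± 2.72) were just above the median of all names. For ogg1 (0.657, 23.3 and 10.2%) and ercc3 (13.1, 16.1 and 2.21%) the hybrid libraries differed by more than the mean itself. Xrcc2 had a share of 57.9% ± 42.8, which rests on 48 counts or fewer per library on its *X. tropicalis* feature and is not interpretable.

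**Figure D4:**
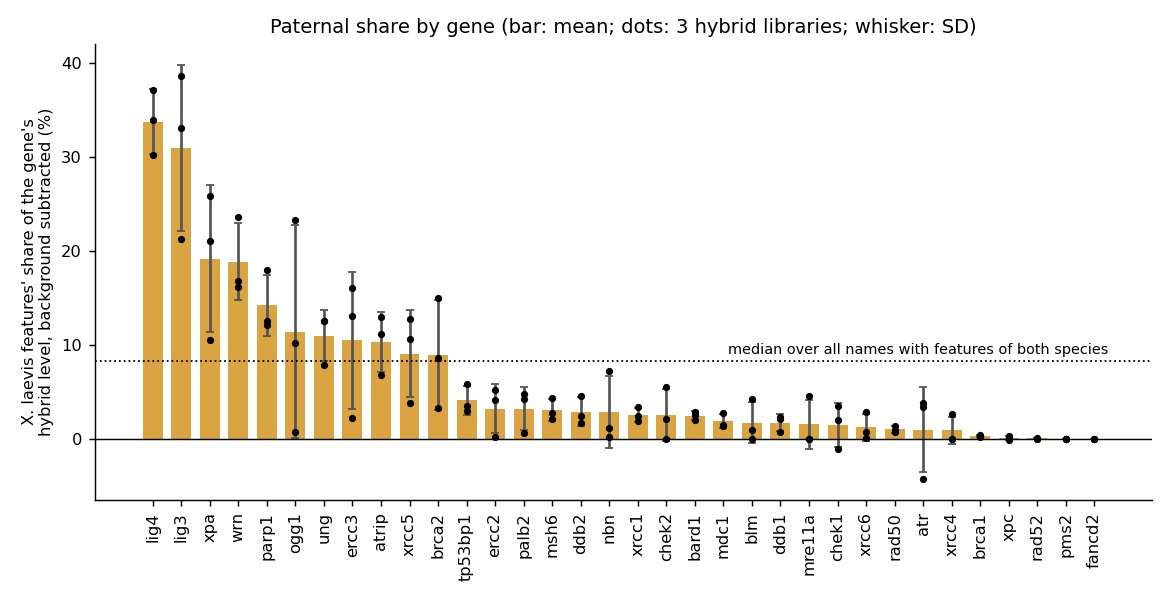
Paternal share (y axis, percent of the gene's hybrid level on *X. laevis* features, background subtracted) for 34 genes with features of both species, xrcc2 left out; bars are means, dots the 3 hybrid libraries, whiskers the SD, and the dotted line the median of 8.28% over all names. Lig4 and lig3 stand at 33.8% and 31.0%, while brca1, xpc, rad52, pms2 and fancd2 lie at or near 0.

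At the other end stood genes that were read from maternal features almost alone. The share of brca1 was 0.274, 0.170 and 0.330%, with brca1.L at 0.846 CPM ± 0.240 in hybrids beside 295 CPM ± 11.1 on brca1. Rad50 (0.970% ± 0.346), atr (0.957% ± 4.56) and xrcc4 (0.858% ± 1.49) were also under 1%, those of atr and xrcc4 with an SD above the mean. Bard1, the partner of brca1, was nearer the median of the member genes at 2.45% ± 0.442, and nbn was at that median, at 2.82% ± 3.82. For pms2 and fancd2 the subtraction gave values just below 0, because their paternal features had no count in hybrids.

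Adding the paternal level moved lig3 and lig4 more than parp1. The same was so for other genes, among them wrn (89.1% to 110% of the *X. tropicalis* level) and, on few counts, xpa (176% to 217%). The *X. tropicalis* feature of lig3 alone stood at 67.7% of its level in *X. tropicalis* embryos, and with the paternal level added the sum came to 97.4%. With the features of both species summed under the human name, *LIG3* had a log2 fold change of -0.22 ± 0.20 SE (edgeR adjusted p = 0.565). For parp1 the maternal feature stood at 41% and the sum at 47.9%, and *PARP1* fell by 1.25 on the log2 scale (± 0.15 SE, edgeR adjusted p = 4.01e-04). *CHEK1* also passed in the summed table (-0.94 ± 0.25 SE), where 2.85% of all names were called lower and 5.06% higher; 0 member names were higher there. The summed table is also scaled anew. *FANCA*, which has no *X. laevis* feature, moved from -0.61 to -0.78 between the tables, and chek1 moved from -0.81 to -0.94. What the scaling and the paternal counts each gave to the added call of chek1 was not tested. Lig4 went from 148% to 223% of the *X. tropicalis* level, and *LIG4* gave 0.97 ± 0.34 SE without passing (edgeR adjusted p = 0.118). How many paternal reads were counted on the maternal features was not measured.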

How the data were processed

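The authors deposited raw counts per feature for features of *X. tropicalis* and *X. laevis*, and a second table of counts summed under human gene names. BWA 0.7.10 was among the tools, per the submitters' processing notes; the counter, genome builds, gene models, strand setting and filters: not given in the sources used here. Near-identical copies may share reads. Member features were matched by name, and by human name where the feature is called only by a model or LOC number; species and chromosome were read from the feature name. Members and lists were chosen with earlier results of these data known.

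*X. tropicalis* features were tested with edgeR 4.0.16 (R 4.3.3; quasi-likelihood, TMM, filterByExpr). *X. laevis* features whose hybrid libraries summed to 10 counts or more were tested on library totals with TMM factors of the *X. tropicalis* features, and the same scale gives all CPM printed (the 5 CPM filter used unscaled totals). Common biological coefficients of variation were 0.65 for *X. tropicalis* and 1.29 for *X. laevis* features, so small changes can be missed. P-values were adjusted by Benjamini-Hochberg over all features at 0.05. SE is the log2 fold change over the square root of F, and intervals use its moderated degrees of freedom. Replicates, biological ones by the series text, differed by more than counting error (chi-square over its degrees of freedom, 105 to 181). Both tests were tested on simulated data. DESeq2 1.42.0, other scalings, filters, the summed table and leaving out each library were the alternatives. Named features are those called, the 10 next by p, the 12 paternal features with the highest CPM above background and all on 3L or 4L. Figures used matplotlib 3.10.9. Some genes of the longer list are not reported here.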

Additional observations from a re-analysis of the deposited data

How the results depend on the processing

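No paired analysis was possible because the replicate numbers are not shared between the groups. Over the *X. tropicalis* features, the count of member features called lower was 1 and became 2 with DESeq2, without the filter on low counts, with scaling over both species and with the features of both species summed, which also changes the scaling; the second was chek1 each time. It stayed at 1 in the other fits, leave-one-out fits included, and the count called higher was 0 in every fit. Scaling over both species moved the median log2 fold change of all features to -0.29 and that of the members to -0.33. Paternal member features above background numbered 21, and 16 to 20 with a library left out, where 36.5 to 43.0% of all *X. laevis* features were called. With a filter of 5 CPM on unscaled library totals, in 3 libraries, 4 were tested and 4 passed. Those 4 met the filter through the hybrid libraries alone, so their passing adds nothing to the main test. The estimate for xpc-like.L was 0.08 and changed sign to -0.31 with scaling over both species, and ranged from -0.97 to 3.33 with a library left out, below 0 in 3 of those fits, with no call in any. The median paternal share moved by less than the spread between hybrid libraries without subtraction or with a library left out. Features of about 1 CPM or less vary too much between libraries for a difference to be detectable unless the background is near 0.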

Other observations

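Paternal transcripts of other repair genes were counted as well. Of 105 *X. laevis* features in the longer list, 97 passed the filter of 10 counts over the hybrid libraries, the group where they can be high. Of these 97, 46 lay above background (edgeR quasi-likelihood test, adjusted p under 0.05), against 40.4% of all *X. laevis* features tested. The list was not tested against that share. Features with a small adjusted p included cdc25a.L, of the phosphatase that checkpoint kinases restrain, at 39.6, 47.1 and 28.8 CPM in the hybrid libraries, and rnf168.L, of a ubiquitin ligase at breaks, at 32.2, 31.5 and 27.0 CPM. Rev3l.L, of a lesion-bypass polymerase, held 14.8 CPM ± 2.32 (SD, n = 3), rpa2.L 9.92 CPM ± 1.47, rad23b.L 18.9 CPM ± 4.47 and rad23b.S 8.52 CPM ± 3.72. The background of these 6 features was 0.232 CPM or less in each *X. tropicalis* library.

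A 3L feature with the human name PCNA, Xelaev18018556m, held 10.6, 9.14 and 19.2 CPM in hybrids, and the 3S feature Xelaev18020338m 15.9, 24.7 and 21.2 CPM. On 3L or 4L, 1 of 10 tested features of the longer list was above background and elsewhere 45 of 87, against 22.2% and 42.3% of all features there. The 3L feature of PCNA was the 1 called.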
